A study of Mus musculus with 2 samples.

Results

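Hspa1a and Hspa1b encode the inducible 70 kDa heat shock proteins of the mouse. Both rows were taken from the expression files of the series, 2 of the 2000 genes in each file. They were chosen by the share of cells with Hspa1b, which went in opposite directions between the treatments in CD4 and in CD8 cells, so the shares by treatment and gate are given as a description with no test. The study compared T cells from the spleens of transplanted mice. WT C57BL/6 spleen and bone marrow cells were injected into lethally irradiated WT BALB/c recipients, which is a model of allogeneic haematopoietic cell transplantation. One group was given tacrolimus, which inhibits calcineurin and so keeps NFAT out of the nucleus of a stimulated T cell, and the other an antibody against IL-2, the growth factor of activated T cells. Treatment ran from day 0 to day 6, when the spleens were taken. The age and sex of the mice, the number of spleens in a library and the doses are not given in the labels. Irradiated recipients keep some cells of their own, and the labels call the libraries donor T cells without saying how these were separated. There was 1 library per treatment, so a difference between treatments is also a difference between libraries, has no replicate check and cannot be tested. Cells are not replicates, and all intervals below are 95% intervals that cover counting error only. Those of unthinned shares are exact binomial (Clopper-Pearson) intervals. For thinned shares the same formula was applied to expected, not whole, counts of cells, so these intervals are approximate. Those of ratios come from the same formula applied to 1 group's part of the positive cells of both groups.

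Inducible HSP70 binds unfolded stretches of other proteins and, driven by ATP and helped by DnaJ cochaperones and nucleotide exchange factors, lets them refold or passes them on for degradation. Its genes are held near silence in unstressed cells and are switched on by the transcription factor HSF1, which binds repeats of nGAAn known as heat shock elements when unfolded proteins build up. The constitutive sister Hspa8 (HSC70) does the same work in nearly every cell, and in T cells activation and fever-range temperature are known to raise the inducible forms.

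Both genes are intronless and lie on the reverse strand of chromosome 17 (GRCm38, GENCODE M21), within the class III part of the mouse MHC. Hspa1b (ENSMUSG00000090877.3) runs from 34956436 to 34959238 and Hspa1a (ENSMUSG00000091971.3) from 34969190 to 34972156, with 9951 bases between them. Hspa1l, a relative expressed mainly in testis, starts 546 bases beyond Hspa1a on the other strand and was not among the 2000 genes. The 250 bases before each start site are shown because they carry the heat shock element and show how alike the genes are (RefSeq, GRCm38.p6, reverse strand). Capitals mark matches to GAANNTTC, the inner head-to-head unit of a heat shock element, which reads the same on both strands. Hspa1b is at chr17:34959239-34959488 and Hspa1a at chr17:34972157-34972406.
Hspa1b: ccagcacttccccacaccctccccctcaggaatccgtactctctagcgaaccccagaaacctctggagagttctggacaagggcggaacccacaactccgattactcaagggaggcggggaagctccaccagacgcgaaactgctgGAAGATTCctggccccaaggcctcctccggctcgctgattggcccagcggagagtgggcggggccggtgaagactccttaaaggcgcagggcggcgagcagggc
Hspa1a: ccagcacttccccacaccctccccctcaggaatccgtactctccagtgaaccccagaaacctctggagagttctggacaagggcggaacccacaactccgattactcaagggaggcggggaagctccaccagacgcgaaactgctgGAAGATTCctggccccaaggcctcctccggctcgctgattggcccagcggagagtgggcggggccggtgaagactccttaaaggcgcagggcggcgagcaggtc
The runs were identical at 98.8% of positions. From the Hspa1b to the Hspa1a run, counted from 1 at the 5′ end, they differed by T44C, C47T and G249T. In both, GAANNTTC stood once, at -104 to -97 from the start site, and TTCNNGAA, the tail-to-tail unit, was not found in this window. A CCAAT box (CCAAT on either strand) lay at -67 to -63, and GC boxes (GGGCGG on either strand) began at -170, -49 and -16. No matches overlapped. Of 32851 RefSeq promoters cut to the same 250 bases, 6.7% held GAANNTTC, 7.2% TTCNNGAA, 33.8% CCAAT and 32.7% GGGCGG.

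The transcripts are also much alike, which limits how reads can be told apart. Of all stretches of 100 bases in the Hspa1b transcript, 49.9% also occur without a mismatch in Hspa1a, and 47.1% of those in Hspa1a occur in Hspa1b. In the coding part the shares were 68.1% and 68.3%, and in the 3′ untranslated part 0.0%. The 5′ untranslated parts differ at 3 of 231 bases, which leaves 4.5% of their stretches without a mismatch. The read length and the rule for reads that fit both genes are not given in the sources used here. A UMI assigned to one gene may therefore in part belong to the other, and the sum of the pair is less exposed to this than either gene. If reads that fit both genes were dropped instead, the sum would be lowered as well. The libraries are 5′ libraries, so the unlike 3′ untranslated parts help less to tell reads apart.

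After a minimum of 200 detected genes, 1267 of 1551 anti-IL-2 cells and 1475 of 1688 tacrolimus cells were kept, with medians of 11852 and 13254 UMIs. Cells were gated by their own RNA, as Cd4-gated (at least 1 UMI of Cd4 and 0 of Cd8a and Cd8b1) or Cd8-gated (the reverse). This gave 294 and 293 Cd4-gated and 701 and 995 Cd8-gated cells in the anti-IL-2 and tacrolimus libraries, while 160 and 93 cells had both and 44 and 47 had neither. A further 68 and 47 cells, with at least 2 markers of B and plasma, myeloid, erythroid, megakaryocyte or progenitor cells and fewer of T cells, were set apart as non-T. None of 8 general T-cell markers (such as Cd3e and Trac) was among the genes in the files, so the gates rest on Cd4, Cd8a and Cd8b1. The T-cell markers of the non-T rule were these and Cd40lg, Izumo1r, Tnfrsf4, Gzmk and Nkg7. Below, T cells are all kept cells not set apart as non-T, so they include the 44 and 47 with neither marker. No doublet caller was run, and 4 cell barcodes occurred in both libraries. The tacrolimus file held whole UMIs. Values of the other file had been batch-integrated, and UMIs were recovered from them after removal of an estimated shift, so a share of anti-IL-2 cells is an estimate.

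**Figure D1:**
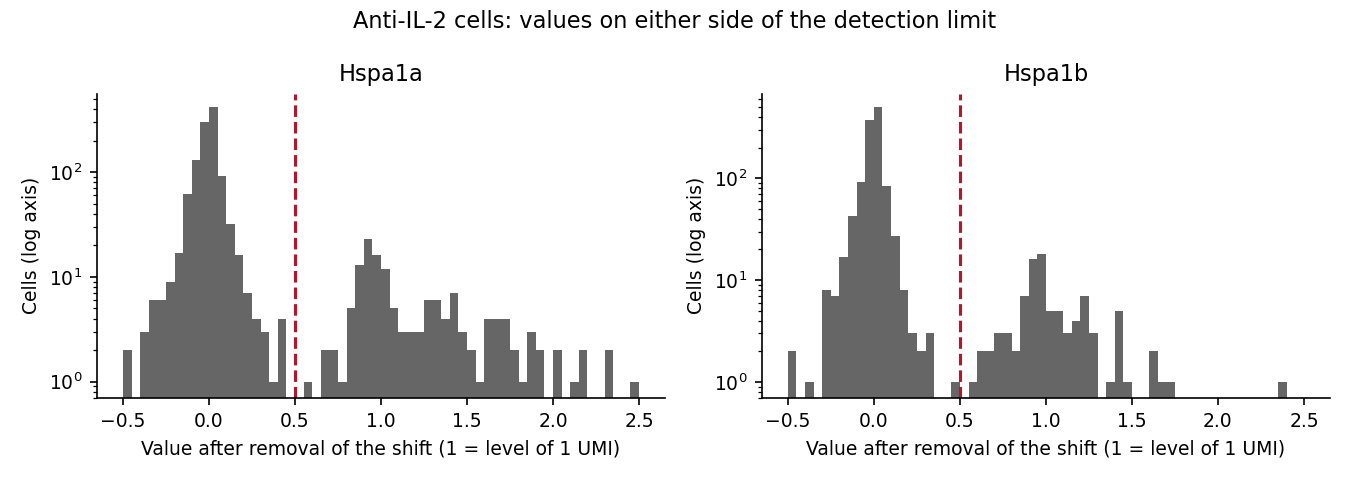
Values of Hspa1a (left) and Hspa1b (right) in the 1267 anti-IL-2 cells with at least 200 detected genes after the integration shift was removed, in units of the level of 1 UMI in the same cell (values beyond -0.5 or 2.5 are drawn at these ends), against the number of cells on a log axis. The dashed line at 0.5 is the limit of detection as read here, and few cells lie near it: 11 and 6 cells between 0.25 and 0.5, and 5 and 9 between 0.5 and 0.75.

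For these genes the limit of detection in the anti-IL-2 cells fell into a gap in the values. Of 1267 cells, 152 were above 0.75 of the level of 1 UMI of Hspa1a and 1099 below 0.25. For Hspa1b the counts were 90 and 1162. Few of all cells were thus open to either call. Beside the 90 cells above 0.75, however, the 6 and 9 Hspa1b cells just below and above the limit were not few. In simulated data Hspa1a was called in 71 cells where 66 truly held it, and Hspa1b in 67 where 66 did.

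Hspa1b was in more Cd4-gated cells and in fewer Cd8-gated cells of the anti-IL-2 library than of the tacrolimus library. Among Cd4-gated cells, 35 of 294 anti-IL-2 cells had at least 1 UMI of Hspa1b, 11.9% (8.43 to 16.2%). In tacrolimus, 25 of 293 Cd4-gated cells had it, 8.53%, or 7.56% (4.81 to 11.2%) once each cell was thinned to the depth of an anti-IL-2 cell of the same rank. Among Cd8-gated cells the order turned. There 34 of 701 anti-IL-2 cells had Hspa1b, 4.85% (3.38 to 6.71%), against 78 of 995 tacrolimus cells, 7.84%, or 7.75% (6.16 to 9.59%) at matched depth.

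As ratios of anti-IL-2 to tacrolimus at matched depth, these shares gave 1.57 in Cd4-gated cells (0.899 to 2.81) and 0.626 in Cd8-gated cells (0.405 to 0.949), or 0.65 and -0.68 on the log2 scale. The Cd4 interval includes equal shares, so that side of the contrast lies within counting error. With every cell brought to 5000 UMIs the Cd8 ratio was 0.545 (0.247 to 1.12), an interval that also includes equal shares. The gaps at matched depth were 4.34 points in Cd4-gated and -2.90 points in Cd8-gated cells. Beside them stands the recovery error of 1.66 points given above, which the intervals leave out. With 2 UMIs as the limit of detection the Cd4 difference was gone: they were in 2.72% of the anti-IL-2 cells against 2.73% under tacrolimus, a log2 ratio of -0.01. The Cd8 difference grew to -1.99 at that limit, from 3 anti-IL-2 cells.

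Cells with endothelial genes bear on the Cd8 side. A list of 13 endothelial genes such as Kdr, Tie1 and Cldn5 was added after the data were seen, and 11 of them were measured. Of the 34 Cd8-gated anti-IL-2 cells with Hspa1b, 5 carried at least 3 of these genes, and all 5 of the Cd8-gated cells that did so had Hspa1b. Their median was 53117 UMIs, against 14476 for all Cd8-gated cells of that library. They are fewer than the 30 neighbours used for the shift, so their recovered values are less certain. In tacrolimus 4 Cd8-gated cells carried 3 or more, 2 of them with Hspa1b. Left out, these cells took the Cd8 shares to 4.17% and 7.57% and the log2 ratio to -0.86, while the Cd4 ratio stayed at 0.65.

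Hspa1a, the sister gene, separated the libraries more widely in Cd4-gated cells and hardly in Cd8-gated cells. In Cd4-gated cells 58 of 294 anti-IL-2 cells had it, 19.7% (15.3 to 24.7%), against 29 of 293 tacrolimus cells, 9.90%, or 8.91% (5.91 to 12.8%) at matched depth. The ratio was 2.21 (1.37 to 3.66), and these intervals of the shares did not overlap. In Cd8-gated cells 60 of 701 (8.56%, 6.59 to 10.9%) and 83 of 995 (8.34%, or 8.31% at matched depth) had it, a ratio of 1.03 (0.726 to 1.45). At a limit of 2 UMIs the Cd8 shares were 3.14% and 5.21%, a log2 ratio of -0.73. Thus Hspa1a did not show opposite directions at 1 UMI, whereas it was lower in the Cd8-gated anti-IL-2 cells when only cells with more of it were counted.

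Over all genes in at least 5% of cells of either library, 14.2% of 914 genes were higher in Cd4-gated anti-IL-2 cells by more than 1.5-fold and 32.5% were lower. In Cd8-gated cells 9.76% of 932 genes were higher and 6.22% lower. Shares higher in Cd4-gated and lower in Cd8-gated anti-IL-2 cells, each by more than 1.5-fold, were found for 4 of 868 genes (0.461%), of which Hspa1b was 1, and at any size for 7.49%. The gene was chosen for this pattern, so nothing is read from these counts.

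**Figure D2:**
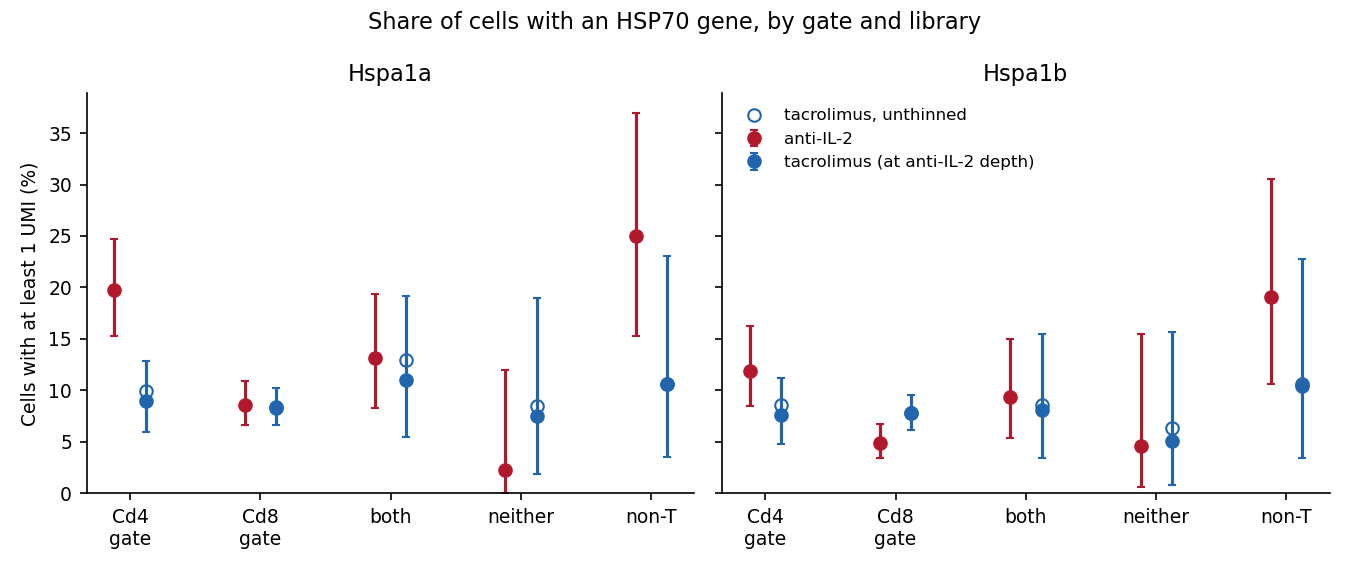
Percent of cells with at least 1 UMI of Hspa1a (left) and Hspa1b (right) by gate, in anti-IL-2 cells (red) and tacrolimus cells thinned to the anti-IL-2 depth (blue), with unthinned tacrolimus cells as open circles. The 95% binomial intervals are exact for anti-IL-2 and approximate for thinned tacrolimus cells. The largest gap between the libraries among gated T cells is that of Hspa1a in Cd4-gated cells, 19.7% against 8.91%, and Hspa1b changes order between the gates.

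Cells outside the gates held the members too. In cells with both Cd4 and Cd8 UMIs, Hspa1b was in 9.38% of the 160 anti-IL-2 cells and 8.60% of the 93 tacrolimus cells, and Hspa1a in 13.1% and 12.9%. In cells with neither, Hspa1b was in 2 of 44 and 3 of 47 cells and Hspa1a in 1 and 4. The highest shares of all were in the anti-IL-2 non-T cells, 17 of 68 cells (15.3 to 37.0%) for Hspa1a and 19.1% (10.6 to 30.5%) for Hspa1b, against 10.6% (3.55 to 23.1%) for each in tacrolimus non-T cells. In order of the anti-IL-2 share, both genes ran from non-T through Cd4-gated and double-marked to Cd8-gated cells and ended with cells that had neither marker, with the interval of each class overlapping that of the next. The Cd4-gated and Cd8-gated classes are not neighbours in this order, and their intervals did not overlap. They were 15.3 to 24.7% and 6.59 to 10.9% for Hspa1a and 8.43 to 16.2% and 3.38 to 6.71% for Hspa1b. In tacrolimus the intervals of all 5 classes overlapped, and the lowest and highest unthinned shares were 8.34% and 12.9% for Hspa1a and 6.38% and 10.6% for Hspa1b. No cell type lacks these genes by lineage, so free RNA cannot be gauged from a negative class. The UMIs of Hspa1a stood to those of Hspa1b as 2.96 and 3.05 in Cd4-gated and Cd8-gated anti-IL-2 cells, as 2.26 and 2.37 in tacrolimus, and as 1.44 and 3.38 in the non-T cells of the same libraries.

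Positive cells mostly held 1 UMI of Hspa1b and more often several of Hspa1a. Of 86 T cells with Hspa1b in the anti-IL-2 library, 69 (80.2%) had 1 UMI and the highest had 3. Of 114 in tacrolimus, 83 (72.8%) had 1 and the highest 8. Of cells with Hspa1a, 84 of 140 (60.0%) and 57 of 128 (44.5%) had 1 UMI. Hspa1a had a longer tail, with more than 5 UMIs in 8 of the 140 positive anti-IL-2 cells and 18 of the 128 positive tacrolimus cells and maxima of 29 and 17. The tenth of positive cells with the most Hspa1a held 37.8% and 36.0% of its UMIs, and for Hspa1b 20.6% and 25%. These levels are low enough that a cell without a UMI cannot be called negative. Summed over gated cells and set per 10000 UMIs, Hspa1b reached 0.137 in Cd4-gated and 0.0306 in Cd8-gated anti-IL-2 cells, against 0.111 and 0.0682 in tacrolimus. Hspa1a reached 0.406 and 0.0933 against 0.249 and 0.161. On this scale both genes were lower in the Cd8-gated cells of the anti-IL-2 library, and Hspa1a was higher in its Cd4-gated cells. Recovery overstated Hspa1b UMI sums in simulated data by more than the Hspa1b gap in Cd4-gated cells, so no direction is read there, and the anti-IL-2 ratios of Hspa1a to Hspa1b UMIs may be too low.

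Depth mattered to the 2 genes in different ways. In tacrolimus Cd8-gated cells, over 4 equal classes of UMIs per T cell (class medians of 7622, 11455, 15615 and 24372 UMIs), the share with Hspa1a went from 0.905% through 4.74% and 6.23% to 19.7%. Its level per 10000 UMIs went up as well, from 0.0123 through 0.0605 and 0.114 to 0.263. The deeper cells thus held more Hspa1a in proportion, beyond the gain that depth alone gives a fixed proportion. Hspa1b in the same cells went from 3.62% through 6.03% and 8.06% to 12.6%, while its level stayed between 0.0555 and 0.0728 per 10000 UMIs. In Cd4-gated tacrolimus cells the shares in the deepest class were 17.6% (8.40 to 30.9%) for Hspa1a and 21.6% (11.3 to 35.3%) for Hspa1b, from 51 cells.

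In the anti-IL-2 library detection did not climb with depth in Cd4-gated cells. Their Hspa1a shares were 17.9%, 22.6%, 21.1% and 16.7% from the shallowest to the deepest class, and those of Hspa1b were 13.8%, 9.52%, 10.5% and 13.3%. The level of Hspa1b per 10000 UMIs was accordingly highest in the shallowest class, 0.307 against 0.0431 in the deepest, which held 30 cells. In Cd8-gated anti-IL-2 cells the Hspa1a share went from 3.54% in the shallowest to 15.3% in the deepest class, while its level per 10000 UMIs had no steady order (0.0600, 0.0939, 0.0591 and 0.110). The classes were cut within each library, so their depths differ (Cd4-gated medians of 6250 and 7958 UMIs in the shallowest and 9900 and 11287 in the next). The Cd4 gap between the libraries in Hspa1a stood in 3 of the 4 classes, at 17.9% (11.6 to 25.8%) against 7.78% (3.18 to 15.4%) in the shallowest and 22.6% (14.2 to 33.0%) against 7.61% (3.11 to 15.1%) in the next. In the third class it was 21.1% (11.4 to 33.9%) against 10.0% (3.76 to 20.5%), and in the deepest 16.7% against 17.6%, and the intervals overlapped in every class. With every cell brought to 5000 UMIs, Hspa1b was in 7.55% and 4.26% of Cd4-gated and 1.66% and 3.04% of Cd8-gated anti-IL-2 and tacrolimus cells. Hspa1a was in 12.7% and 5.91% and in 3.46% and 4.14%.

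**Figure D3:**
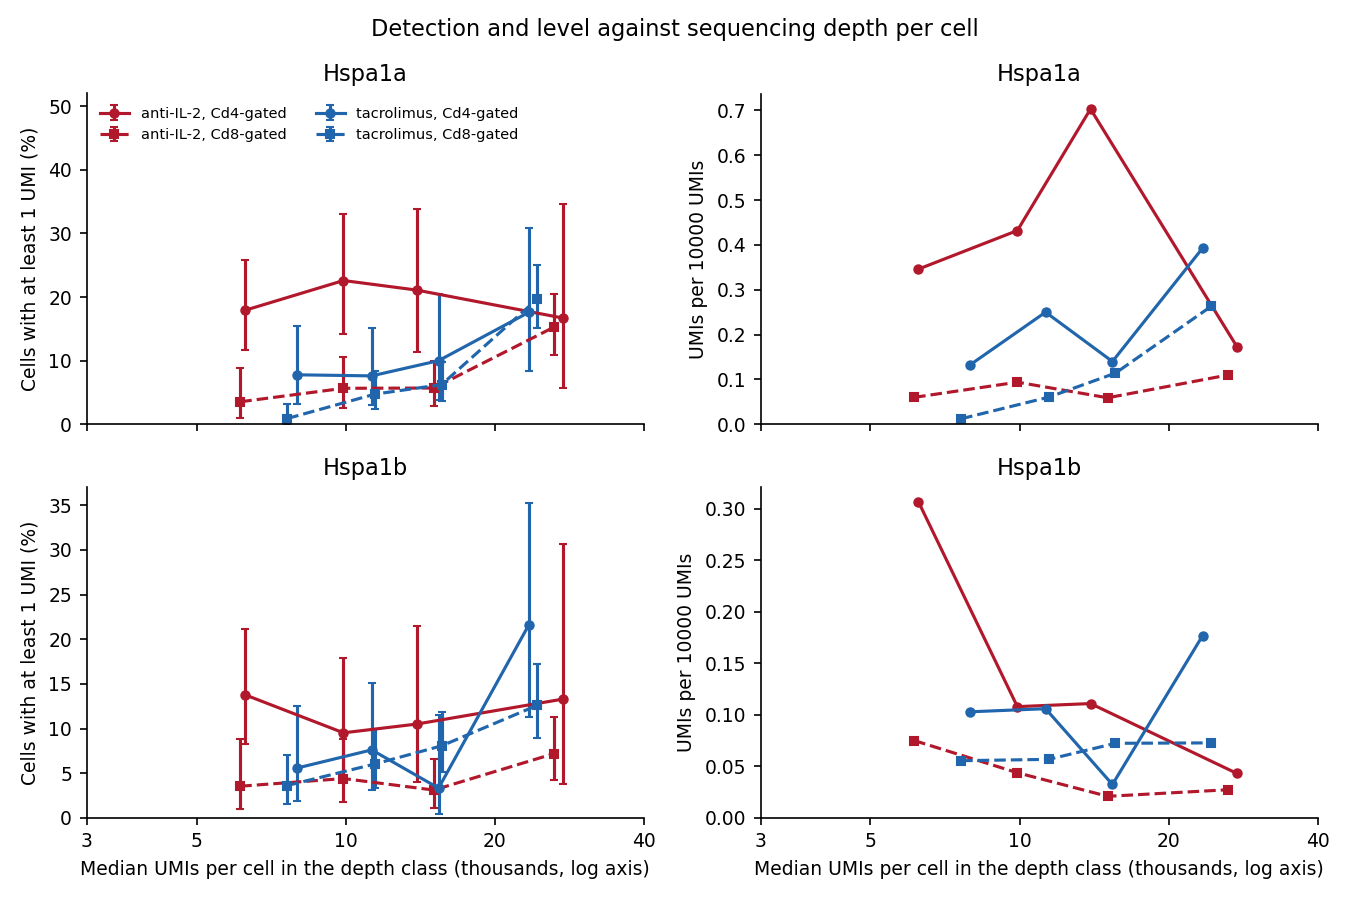
Detection of Hspa1a (top) and Hspa1b (bottom) in 4 equal depth classes of each library, placed at the class's median UMIs per cell on a log axis. The left panels give the percent of cells with at least 1 UMI with 95% exact binomial intervals and the right panels UMIs per 10000 UMIs: the tacrolimus Cd8-gated level of Hspa1a (blue dashed) climbs from 0.0123 to 0.263, and that of Hspa1b stays between 0.0555 and 0.0728.

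Division was read from 29 cell cycle genes, with a cell called dividing when 3 or more of them had a UMI at 5000 UMIs. By that rule 50.5% of Cd4-gated and 83.2% of Cd8-gated anti-IL-2 cells and 81.7% and 93.7% of tacrolimus cells were dividing, so the groups differ in this as well. Within the anti-IL-2 Cd4-gated cells, Hspa1b at 5000 UMIs was in 10.7% (6.09 to 17.1%) of 138 non-dividing and 4.45% (1.70 to 9.30%) of 141 dividing cells. In tacrolimus the shares were 6.42% (upper bound 16.8%) of 52 and 3.78% (1.72 to 7.11%) of 232. Both pairs ran the same way, with intervals that overlapped. The tacrolimus order reversed when neither division nor Hspa1b was read after thinning, at 8.61% of 267 dividing and 7.69% of 26 non-dividing cells. With division read after thinning and Hspa1b before it, the shares were 14.5% and 9.93% of non-dividing and dividing anti-IL-2 cells and 9.62% and 8.62% of tacrolimus cells.

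In Cd8-gated cells Hspa1b was in 1.83% and 1.62% of non-dividing and dividing anti-IL-2 cells and 3.19% and 3.03% of tacrolimus cells. The ratios of dividing to non-dividing were 0.889 (0.186 to 8.18) and 0.950 (0.236 to 8.61), too wide to show that division made no difference. Hspa1a in Cd4-gated cells stood at 12.4% and 12.9% in anti-IL-2 (ratio 1.03, 0.504 to 2.13) and 6.32% and 5.82% in tacrolimus (0.921, 0.265 to 4.58). In Cd8-gated cells at 5000 UMIs it was in 2.34% of 112 non-dividing and 3.68% of 555 dividing anti-IL-2 cells (ratio 1.57, 0.440 to 9.61), and in 1.14% of 61 and 4.34% of 914 tacrolimus cells, the former from 1 cell. Before thinning, with the dividing cells deeper, the shares were 5.36% and 9.73% in anti-IL-2 and 1.64% and 8.97% in tacrolimus. Among all genes, 41.8% of 797 were higher by more than 1.5-fold in dividing Cd4-gated tacrolimus cells and 12.3% were lower, and in Cd8-gated cells 41.5% of 788 and 12.8%. In non-dividing Cd8-gated cells alone, Hspa1a was in 5.22% of 115 anti-IL-2 cells and in 1 of 61 tacrolimus cells, with anti-IL-2 cells below 5000 UMIs included.

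**Figure D4:**
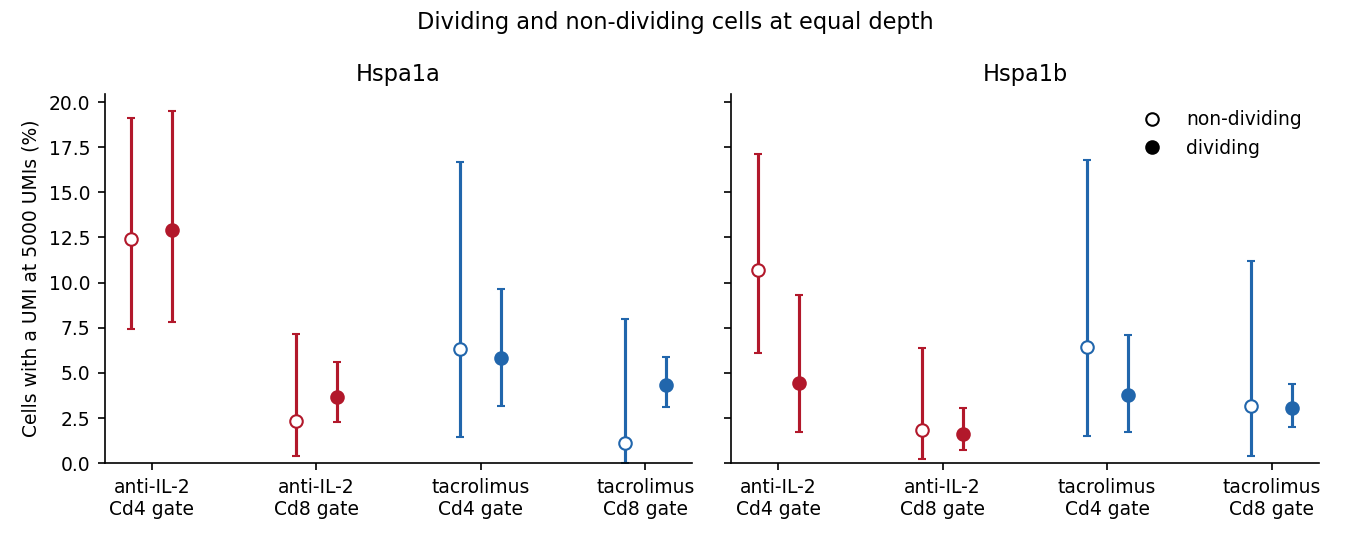
Percent of Cd4-gated and Cd8-gated cells of each library with Hspa1a (left) or Hspa1b (right) after all cells were thinned to 5000 UMIs, for non-dividing (open) and dividing (filled) cells, with approximate 95% binomial intervals. The widest pair is Hspa1b in Cd4-gated anti-IL-2 cells, 10.7% against 4.45%, and the intervals of every pair overlap.

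The 2 genes were found in the same cells more often than their separate shares give. In tacrolimus, 43 T cells had both against 13.3 expected within gate and depth class, 3.23 times as many. In anti-IL-2, 32 cells had both against 12.4 expected, 2.58 times. Of tacrolimus cells with Hspa1b, 37.7% (28.8 to 47.3%) also had Hspa1a, against 6.47% (5.20 to 7.94%) of those without. In anti-IL-2 the shares were 37.2% (27.0 to 48.3%) and 9.70% (8.03 to 11.6%). The excess stood in both gates: 2.21 and 2.88 times in Cd4-gated and Cd8-gated anti-IL-2 cells and 3.92 and 3.18 times in tacrolimus. Without the cells with endothelial genes it was 2.65 and 3.19. Reads of one gene assigned to the other would also place both in a cell, and their part in this count was not tested.

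Cells with both genes held more of Hspa1a. Their median in the anti-IL-2 library was 2 UMIs, and under tacrolimus 3, against 1 in cells with Hspa1a alone, and their median of Hspa1b was 1 in both libraries. In tacrolimus they were also the deepest cells, with a median of 19651 UMIs against 12829 in cells with neither gene, and 95.3% against 89.8% were dividing. In anti-IL-2 the medians were closer, 12931 and 11617. There 46.9% of the 32 cells with both genes were Cd4-gated, against 21.5% of the 1005 cells with neither; in tacrolimus the shares were 27.9% of 43 and 20.4% of 1229. Either gene was seen in 26.5% of Cd4-gated anti-IL-2 cells and 14.3% of Cd4-gated tacrolimus cells, and in 84 of 701 and 133 of 995 Cd8-gated cells, before thinning.

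Among 895 genes in at least 5% of tacrolimus T cells, each member was the gene most often found with the other. More than 1.5 times the expected number was reached by 1.56% of genes with Hspa1b and by 1.34% with Hspa1a, while 2.01% and 1.01% lay more than 1.5-fold below it. After Hspa1a, the genes highest with Hspa1b were Ifitm3, an interferon-induced membrane protein (1.81), Gbp5, an interferon-induced GTPase (1.80), Il1r2, the decoy IL-1 receptor (1.76), Fcgrt, the neonatal Fc receptor (1.76), Gng3, a G protein subunit (1.75), Itga1, the alpha chain of a collagen-binding integrin (1.63), and Arfgap3 (1.59). After Hspa1b, those highest with Hspa1a were H2-Oa (1.77), Gm20628 (1.67), Fam101b (1.64), Gng3 (1.59), Il1r2 (1.58), Il6st, the shared receptor chain of the IL-6 family (1.55), and Ly6c1 (1.54). These rest on 13 to 34 cells each, and in the anti-IL-2 library 10 of the 14 ratios were 1.17 or lower, such as Ifitm3 at 1.09 and Gng3 at 0.201 with Hspa1b. The other 4 were Fcgrt (2.53) and Itga1 (2.19) with Hspa1b and Il1r2 (1.54) and Ly6c1 (1.69) with Hspa1a. Without the cells with endothelial genes, Arfgap3 fell below 1.5 in tacrolimus (1.35) with Hspa1b, as did Il6st (1.44) and Ly6c1 (1.41) with Hspa1a, and in anti-IL-2 Fcgrt with Hspa1b stood at 1.34 and Ly6c1 with Hspa1a at 1.26. Only Il1r2 and Gng3 were in both lists of 8.

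**Figure D5:**
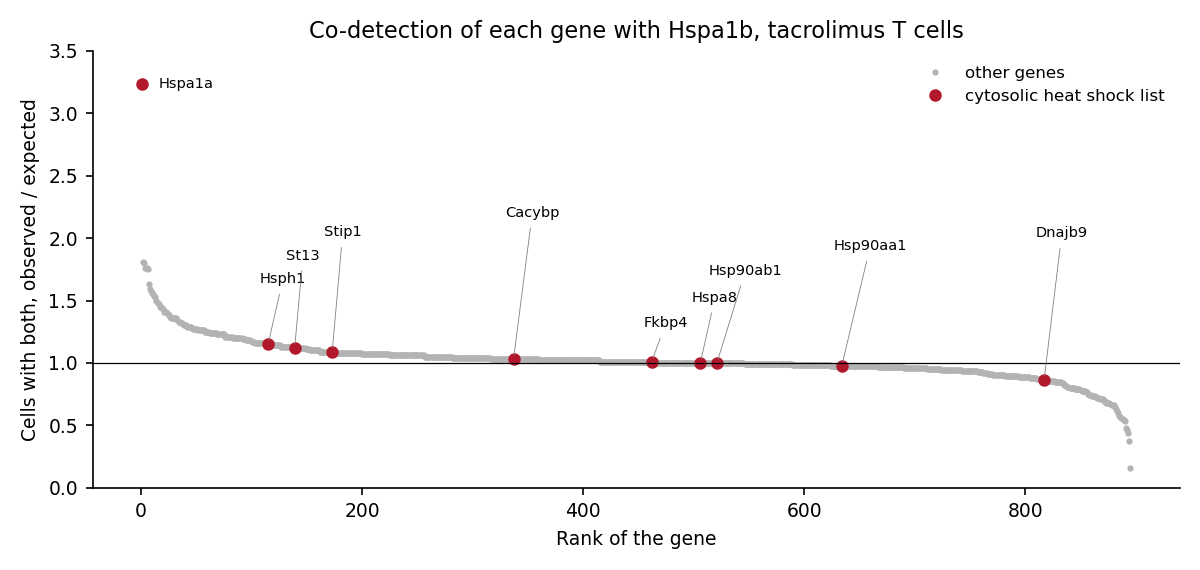
Number of tacrolimus T cells with both Hspa1b and another gene, divided by the number expected within gate and depth class, for 895 genes in at least 5% of cells in order of this ratio. Genes of the cytosolic heat shock list are red and named: Hspa1a stands alone at 3.23, and the other listed chaperones lie between 0.865 and 1.15. Genes found in most cells cannot rise far above 1.

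No other measured gene of the heat shock list at 5% of tacrolimus T cells was found with a member in more than 1.5 times the expected number of cells. Most of them could not reach that limit with both members, because their expected numbers were high. Stip1, Fkbp4 and Cacybp were expected in 84.6, 92.4 and 91.4 of the 114 cells with Hspa1b. Only Hsph1 and Dnajb9 had clear room to reach it with both, and Dnajb9, though on the list, encodes a protein outside the cytosol. The cytosolic heat shock and HSF1 list held 34 genes, of which 14 were measured and 11 reached 5% of cells in a library. Hsph1, the HSP110 exchange factor of HSP70, was in 46.8% of tacrolimus T cells and was found with Hspa1b 1.15 times and with Hspa1a 1.06 times the expected number of times, and in anti-IL-2 1.07 and 1.24 times. St13 and Stip1, cochaperones that link HSP70 to HSP90, stood at 1.12 and 1.09 with Hspa1b. Hspa8, Hsp90aa1 and Hsp90ab1, the constitutive and abundant chaperones, were in 93.3% or more of tacrolimus T cells, so their ratios, of which the lowest was 0.978, could hardly differ from 1. Fkbp4, an HSP90 cochaperone, stood at 1.01, Cacybp at 1.03, and Dnajb9, a DnaJ protein of the endoplasmic reticulum, at 0.865. The small heat shock genes Hspb1, Hspb8 and Cryab were in under 1% of T cells, and with Hspa1b in 7, 2 and 2 anti-IL-2 cells. Without the cells with endothelial genes, the Cryab ratio in that library went from 8.09 to 0 and the Hspb1 ratio from 6.21 to 4.40.

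Jun and Fos, immediate early genes also known to respond to tissue handling, were found with the members more often than expected, though in anti-IL-2 within the usual spread of genes. Jun was found with Hspa1b 1.44 times and with Hspa1a 1.48 times the expected number of times in tacrolimus, and 1.45 and 1.34 times in anti-IL-2. Fos stood at 1.41 and 1.53 in tacrolimus and 1.31 and 1.18 in anti-IL-2. In that library the range from the 5th to the 95th percentile of all 908 genes was 0.721 to 1.55 with Hspa1b and 0.780 to 1.59 with Hspa1a, and other listed genes stood as high, such as Gadd45b (1.42 with each) and Ppp1r15a (1.55 and 1.28). In tacrolimus the ranges were 0.783 to 1.28 and 0.851 to 1.30. Over the 17 immediate early genes at 5% in tacrolimus the median was 1.06 with either member, and the lowest was Egr1, at 0.574 with Hspa1b. The median of all 895 genes was 1.01 with Hspa1b and 1.02 with Hspa1a. How far handling of the cells contributed was not tested.

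The members' own calls between the libraries follow from the choice of Hspa1b and its sister, so only the rest of their list adds to them. In Cd4-gated cells, 2 of the 11 heat shock genes at 5% were higher in anti-IL-2 by more than 1.5-fold, and these were Hspa1a and Hspa1b, where 14.2% of all genes were higher. None was lower, where 32.5% of all genes were, and the list's median log2 ratio was -0.01, beside -0.22 for all genes. The counts and medians given here for both gates include the 2 members. In Cd8-gated cells 0 were higher and 1, Hspa1b, was lower, where 9.76% and 6.22% of all genes were, with a median of -0.03 beside -0.05 for all genes. Hsph1 was in 35.0% of Cd4-gated anti-IL-2 and 31.7% of tacrolimus cells and in 50.1% and 51.1% of Cd8-gated cells. Dnajb9, whose protein is of the endoplasmic reticulum, came nearest to the members in Cd4-gated cells, with 15.3% against 10.5% (log2 ratio 0.54). St13 was in 68.6% and 54.6% of Cd8-gated cells (0.33), and the ratios of Stip1, Fkbp4, Cacybp, Hspa8, Hsp90aa1 and Hsp90ab1 lay between -0.29 and 0.03 in both gates. A share cannot pass 100%, so Hspa8, Hsp90aa1 and Hsp90ab1, in 89.9% or more of tacrolimus cells, could not be called higher in either gate. Shares near 100% also hide a modest fall in level, as for Hspa8 and Hsp90ab1 (each 99.3% of Cd4-gated anti-IL-2 cells). The absence of lower genes is therefore not read against the 32.5%. Nor could Stip1, Fkbp4 and Cacybp in Cd8-gated cells (67.0%, 74.9% and 73.2% in tacrolimus).

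Other stress lists are given by their counts, with no test, to be read against the same shares of all genes (14.2% higher and 32.5% lower in Cd4-gated, 9.76% and 6.22% in Cd8-gated cells). All 3 measured mitochondrial chaperones (Hspd1, Hspe1 and Hspa9) stayed within 1.5-fold in both gates. Of 11 endoplasmic reticulum chaperone genes at 5%, 1 was lower in Cd4-gated anti-IL-2 cells (Sdf2l1, 42.2% against 66.2%) and 0 in Cd8-gated cells. The cap on shares holds here too. Hspe1 (88.8% and 91.9% of Cd4-gated and Cd8-gated tacrolimus cells) and Hspd1 (70.7% and 83.2%) could not be called higher. Nor could most of the endoplasmic reticulum chaperone genes in either gate. Of 4 oxidative and metal stress genes, the metallothioneins Mt1 (23.8% against 42.7%) and Mt2 (3.74% against 8.18%) were lower in Cd4-gated and Mt2 (10.3% against 31.3%) in Cd8-gated anti-IL-2 cells. Of 17 immediate early genes, Jun (38.4% against 20.1%) and Egr2 (5.10% against 1.25%) were higher and Ier3 and Nr4a1 lower in Cd4-gated anti-IL-2 cells (log2 ratios of -0.81 and -0.78). Of 16 in Cd8-gated cells, Egr1 (8.42% against 4.26%) and Nr4a2 (47.9% against 25.3%) were higher. Jun thus shared the direction of the members in Cd4-gated cells and was in 35.4% against 25.9% of Cd8-gated cells, the opposite of Hspa1b there.

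Markers of other cell types were set beside the members. At least 1 UMI of 11 pancreatic acinar genes, a list known from earlier results of these data, was in 72.7% of tacrolimus and 10.2% of anti-IL-2 T cells. In tacrolimus it did not go with the members (73.7% of cells with Hspa1b, 74.2% with Hspa1a and 72.5% with neither). In anti-IL-2 it was in 18.6%, 9.29% and 9.75%. The progenitor genes Cd34 and Mpo were in 9.30% of anti-IL-2 T cells with Hspa1b and 0% of those with neither member, and the endothelial genes in 8.14% and 0.597%. Erythroid genes were in 14% and 8.86%, megakaryocyte genes in 5.81% and 2.09%, B and plasma cell genes in 5.81% and 10.6%, and myeloid genes in 79.1% and 82.0%. The 4 regulatory T-cell markers (any of Foxp3, Il2ra, Ikzf2 and Ctla4) were in 87.2% and 81.0%, and the 2 measured NK markers in 22.1% and 32.8%. In tacrolimus the same comparison gave 1.75% and 0.244% for progenitor, 3.51% and 0.488% for endothelial, 0.877% and 1.55% for erythroid, 5.26% and 1.30% for megakaryocyte, 19.3% and 12.7% for B and plasma cell, 95.6% and 93.0% for myeloid, 82.5% and 76.2% for regulatory T and 28.1% and 30.6% for NK genes. In tacrolimus T cells Cd79a, Ms4a1, Adgre1 and Mpo were at 0. Each of these shares counts cells with any gene of a list, and the 7 myeloid genes include Cst3 and Itgax. Lyz2, also of that list, was in 0.340% and 1.28% of Cd4-gated and Cd8-gated anti-IL-2 cells and 3.07% and 2.21% in tacrolimus. Which genes carry the myeloid shares is not given here. Apart from leaving out the cells with endothelial genes, the part of these cells and RNAs in the shares of Hspa1a and Hspa1b was not tested.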

How the data were processed

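Single-cell 5′ libraries of 2 samples, 1 per treatment, were used, and the T-cell receptor libraries were not analysed here. Reads were processed with Cell Ranger 3.1.0 and Seurat (version not given in the sources used here) against mm10, per the submitters' processing notes. The authors deposited natural log values of 2000 genes per cell. In the tacrolimus file these gave whole UMI counts for 100% of values (tolerance 0.001, scale 50000 per cell). That file also repeats 308 anti-IL-2 columns, which were skipped. Of the anti-IL-2 values 13.9% were negative, as batch integration can leave them. UMI counts had been assumed when the tests were chosen. Depth is the UMI total that the scale gives for each cell.

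For anti-IL-2 cells, the shift shared by the 30 nearest cells was removed, with the neighbours' median used where under 0.45 of them held the gene, and a gene was called detected above 0.5 of the level of 1 UMI. Totals were fitted, or read from the values where the reading lay within 25% of the fit (209 cells). Where a total could be read from 2 or more values (104 cells), the fit lay within 25% in 94.2%, and from 1 value (142 cells) in 78.2%. The steps were set on 1 simulation made from tacrolimus cells with Seurat 5.3.0 and tested on simulated data of another. Detection was recovered better than UMI sums, of which those of Hspa1b came out too high and those of Cd8b1 too low.

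Tacrolimus cells were thinned to the depth of anti-IL-2 cells of the same rank in their class. A thinned share is the sum over cells of the chance of detection at the lower depth, while cell cycle genes were thinned by a random draw. Expected co-detection was taken within gate and 4 depth classes. Higher and lower mean over 1.5-fold, for genes in at least 5% of cells of a library. The named genes were both members, every measured gene of the cytosolic heat shock list at 5%, listed genes past 1.5-fold, and the 8 genes most often found with each member. The members and lists were chosen with earlier results of these data known. Python 3.11.15, numpy 2.4.6, scipy 1.17.1 and scikit-learn 1.9.0 were used.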

Additional observations from a re-analysis of the deposited data

Results flagged for a closer look

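The share of cells with Hspa1b went in opposite directions in the 2 gates. The log2 ratio of anti-IL-2 to tacrolimus was 0.65 in Cd4-gated and -0.68 in Cd8-gated cells. With 1 library per treatment the difference between the gates was not tested, and both genes were chosen for this pattern. Hspa1a gave 1.15 and 0.04.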

How the results depend on the processing

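Ratios of shares were compared with the counting interval of the reported ratio, a form chosen after the data were seen; ratios with under 1 expected cell in a group were not formed. With detection at 2 UMIs or more, the Hspa1b ratio of anti-IL-2 to tacrolimus (log2) reversed in Cd4-gated cells (-0.01) and moved to -1.99 in Cd8-gated cells, and that of Hspa1a in Cd8-gated cells moved to -0.73. With dividing cells left out the Hspa1a ratio in Cd8-gated cells was 1.67, from 1 tacrolimus cell. Without thinning, the ratio of dividing to non-dividing Cd4-gated tacrolimus cells for Hspa1b was 0.16, against -0.77. Other ratios by division stayed within their wide intervals but not always in place: without thinning, Hspa1a in Cd4-gated tacrolimus cells went from -0.12 to 1.45, Hspa1a in Cd8-gated anti-IL-2 cells from 0.65 to 1.63 and Hspa1b in Cd8-gated tacrolimus cells from -0.07 to 1.31 (-1.01 at 3000 UMIs), and with 2 list genes Hspa1b in Cd8-gated anti-IL-2 cells went from -0.17 to -1.07 and Hspa1a in Cd4-gated ones from 0.05 to -0.63. Without depth classes, co-detection in tacrolimus was 4.19 times the expected number. With genes in at least 2% of cells, 4 of 21 immediate early genes were higher and 3 lower in Cd4-gated anti-IL-2 cells. In Cd8-gated cells 6 of 21 were higher. Relative to the median of all genes, 6 of 17 immediate early genes were higher and 1 lower in Cd4-gated cells. On that scale 0 of 11 endoplasmic reticulum chaperones were lower there, and 3 of 11 heat shock genes were higher, against 2 before. The shares of all genes under these settings are not given, so nothing is read from these counts. The causes were not tested. The ratios by gate stayed within the interval with a gate at 2 UMIs, with anti-IL-2 values as deposited and with the repeated columns included. All kept their direction there except that of Hspa1a in Cd8-gated cells (-0.03 as deposited). In Cd4-gated cells Hspa1a gave 0.78, 0.99 and 0.93 in this order, against 1.15, and Hspa1b 0.44, 0.70 and 0.72, against 0.65. Simulated data gave 334 cells with 2 or more Cd8b1 UMIs where 536 held them, so the gate at 2 UMIs is less certain. Of the alternatives chosen after the data were seen, anti-IL-2 cells whose total was read gave 1.18 and -0.39 for Hspa1b and 1.40 and -0.22 for Hspa1a in Cd4-gated and Cd8-gated cells, and leaving out the cells with endothelial genes gave 0.65, -0.86, 1.15 and 0.04. No paired analysis was possible because there was 1 library per treatment. Depth limits all of this: many positive cells held 1 UMI, so a cell without one is not shown to lack the gene.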
